A study of Mus musculus with 6 samples.

Results

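Grb10, H19 and the genes of the insulin-like growth factor (IGF) and insulin axis were followed in day 4 embryoid bodies (EBs), the floating aggregates in which mouse embryonic stem cells (mESCs) leave pluripotency and begin to form germ layers. The 10 genes were selected by symbol (Grb10, H19, Igf2, Igf2r, Igf1r, Insr, Irs1, Irs2, Igfbp2 and Igfbp3) from the 23353 genes of the expression table, and all 10 were found and passed the filter on low values, which 13136 genes passed. Grb10 and H19 were known to differ between the genotypes when the genes were selected, so the genotype differences of the 10 genes are descriptions: where a gene is said to be called, that states how it stood in a fit over all tested genes and supports nothing. Wildtype EBs came from the W9.5 mESC line. EVX1-Δfs EBs came from clone 14, a CRISPR-Cas9 edited derivative of W9.5 that carries small frameshift deletions in both alleles of Evx1, a homeodomain transcription factor gene of the primitive streak, within the homeodomain sequence of exon 2. Both genotypes were differentiated for 4 days in serum medium from which LIF was left out, in 3 runs each set up on a different day, giving 3 mRNA-seq libraries per genotype. The edited genotype is 1 clone, so an effect of the edit and a property of the clone cannot be told apart. The paper also compared EVX1-Δfs EBs with EBs of another edited line, which carries a larger deletion across Evx1 and Evx1as. Only 3 genes were reported to differ there: Evx1, Evx1as and Grb10. The paper considers the Grb10 difference unlikely to matter biologically, and its text does not give the direction. No library of that line was used here.

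The IGF pathway is one of the main controls of growth in the mouse embryo. Igf2 encodes the fetal growth ligand IGF2, which signals through 2 related receptor tyrosine kinases, the IGF1 receptor (Igf1r) and the insulin receptor (Insr). The activated receptors recruit the docking proteins IRS1 and IRS2, which pass the signal to PI3 kinase and AKT. GRB10 is an adaptor that binds the activated receptors and restrains them. IGF2R binds IGF2 and carries it to the lysosome without sending a growth signal. Igfbp2 and Igfbp3 encode secreted proteins that hold IGFs outside the cell. Several of these genes are imprinted, which means that 1 parental allele is expressed: Igf2 from the paternal chromosome, and H19, Igf2r and, in most tissues, Grb10 from the maternal one. H19 is a non-coding RNA next to Igf2, and the same enhancers and imprinting control region serve both genes. The counts do not separate the parental alleles, so imprinting itself was not measured.

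Reads assigned to genes numbered from 7597879 to 9914471 per library. Values are normalized counts, that is, reads divided by 1 scaling factor per library. In Evx1, the targeted gene, wildtype EBs had 2358, 2176 and 2400 normalized counts and EVX1-Δfs EBs had 2354, 2516 and 2012. The genotypes overlapped, and gene counts cannot check for small deletions. All 10 listed markers of the primitive streak and nascent mesoderm were detected in every library, with a summed level of 15856 to 19090 normalized counts in wildtype and 10760 to 13898 in EVX1-Δfs EBs. In wildtype replicate 3, 24.0% of the 13136 tested genes had their lowest value of the 6 libraries. That share was 37.8% among the 3217 genes with the longest exons, over 5692 bases, and 14.5% among the 3219 with the shortest, under 2391 bases.

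Among the 10 genes, 1 was called higher in EVX1-Δfs EBs (Grb10) and 1 lower (H19), at a limma adjusted p under 0.05 over all tested genes. The background was 5.02% of tested genes called, with 2.08% higher and 2.95% lower. The values of the 2 genotypes did not overlap in Grb10, H19 and Igf2r, which is 3 of 10 genes, where 26.9% of all tested genes did not overlap. Because earlier results of this contrast chose the genes, nothing is read from these shares. The median log2 fold change over the 10 genes was 0.12, against 0.00 over all tested genes.

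**Figure D1:**
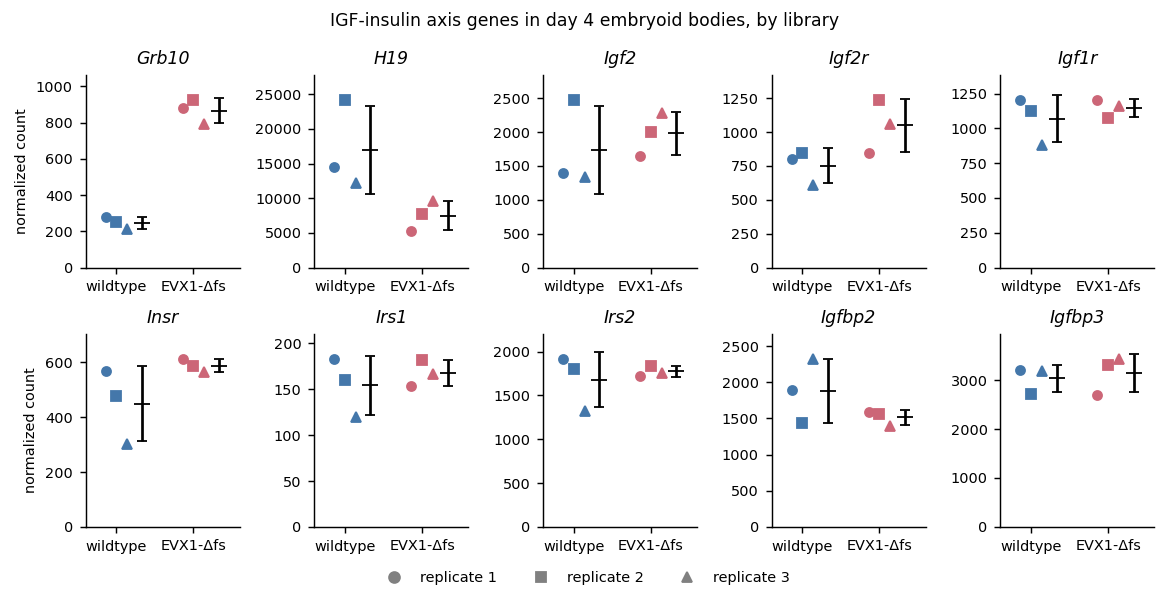
Normalized counts of the 10 genes in each of the 6 libraries, 1 panel per gene with its own linear axis starting at 0. Points are single libraries, shapes mark the replicate number, and the bars beside them give the mean ± SD (n = 3). Grb10 sits between 212 and 279 in wildtype and between 791 and 927 in EVX1-Δfs EBs, H19 is lower in all 3 EVX1-Δfs libraries, and the receptors and IRS adaptors have their lowest point in wildtype replicate 3.

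Grb10 had 279, 252 and 212 normalized counts in replicates 1, 2 and 3 of wildtype EBs. The same replicates of EVX1-Δfs EBs had 883, 927 and 791. The lowest EVX1-Δfs library was well above the highest wildtype library, and the libraries of each genotype lay close together. Mean ± SD (n = 3) was 248 ± 34.0 in wildtype against 867 ± 69.5 in EVX1-Δfs EBs, which is 3.5-fold and, on the log2 scale, a fold change of 1.81 ± 0.13 (SE). In recovered reads, Grb10 had from 185 to 292 in the wildtype libraries and from 822 to 946 in the EVX1-Δfs libraries, so no library rests on fewer than 185 Grb10 reads. Grb10 had the 6th highest log2 fold change of the 13136 tested genes. Its log2 fold change stayed between 1.70 and 1.90 over 19 fits with other scalings, filters, models or 1 library left out, and Grb10 was called in each of them. In these whole EBs, a change in the share of Grb10-expressing cells and a change in Grb10 RNA per cell cannot be told apart. Grb10 is also the gene outside the Evx1 locus that the paper reported to differ between EVX1-Δfs EBs and the other edited line. Whether the Grb10 difference from wildtype comes from the edit or from the clone was not tested.

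Grb10 lies at chr11:11830511-11938686 on the minus strand (mm9). Its gene model has 12 transcripts, and the counts per gene do not say which start site was in use. RefSeq lists 2 starts on GRCm38.p6, and the 250 bases upstream of each are shown because they differ in base composition, with CG pairs, the sites of DNA methylation, in capitals. The first is at chr11:12037421-12037670 and the second at chr11:12027972-12028221, both on the minus strand.
Grb10 start 1: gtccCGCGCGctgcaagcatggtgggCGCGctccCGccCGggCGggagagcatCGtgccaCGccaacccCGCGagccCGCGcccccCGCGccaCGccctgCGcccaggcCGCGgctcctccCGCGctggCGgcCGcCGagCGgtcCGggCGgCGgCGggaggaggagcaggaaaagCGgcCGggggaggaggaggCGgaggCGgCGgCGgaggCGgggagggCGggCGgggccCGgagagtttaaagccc
Grb10 start 2: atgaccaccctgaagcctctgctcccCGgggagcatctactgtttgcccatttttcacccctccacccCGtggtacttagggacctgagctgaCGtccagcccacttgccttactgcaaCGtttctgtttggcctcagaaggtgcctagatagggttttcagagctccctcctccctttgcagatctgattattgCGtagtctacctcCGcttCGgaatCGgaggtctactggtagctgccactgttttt
The upstream sequence of start 1 holds 40 CG pairs and that of start 2 holds 8. With the 50 bases after each start included, the 300-base windows hold 45 and 9 CG pairs. Of 32851 RefSeq promoter windows of the same length, 98.1% have fewer than the first and 54.2% have fewer than the second, with a median of 7. No methylation was measured in these libraries. The 4 tested genes of the Grb10 neighbourhood were not called. Cobl, which neighbours Grb10 on the side of its start, had a log2 fold change of 0.43 ± 0.20 (SE). Ddc, which is imprinted together with Grb10 in some tissues, had a log2 fold change of 0.69 ± 0.49 (SE). Its level was low, from 2.87 to 16.8 normalized counts in the 6 libraries. Fignl1 and Ikzf1 had log2 fold changes of 0.26 ± 0.13 and 0.71 ± 0.33 (SE). All 4 were positive, with a median of 0.56 against 0.0 over all tested genes.

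The other members of the Grb7 family of adaptors gave a different picture. Grb7 had 806, 731 and 789 normalized counts in wildtype and 713, 792 and 764 in EVX1-Δfs EBs, a log2 fold change of -0.04 ± 0.11 (SE, limma adjusted p = 0.88). Grb14, which also inhibits the insulin receptor, had 95.7, 91.1 and 113 in wildtype and 115, 91.3 and 80.0 in EVX1-Δfs EBs, a log2 fold change of -0.08 ± 0.19 (SE, limma adjusted p = 0.844). In wildtype libraries, Grb10 had 0.346, 0.345 and 0.269 counts for each Grb7 count, and in EVX1-Δfs libraries 1.24, 1.17 and 1.03. These ratios are not corrected for length, so they compare libraries and not the levels of the 2 genes.

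The genes whose values followed Grb10 most closely over the 6 libraries were found by the root mean square difference of log2 values, each taken relative to the gene's wildtype mean, among 10629 tested genes with a mean of at least 50 normalized counts. Zfhx4, a zinc finger homeobox gene, was the closest at 0.214, with 93.8, 103.0 and 76.7 normalized counts in wildtype and 319, 251 and 253 in EVX1-Δfs EBs. Podn followed at 0.374 and Tex15 at 0.473. All 3 were higher in every EVX1-Δfs library than in any wildtype library, as their choice by likeness to Grb10 makes likely.

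H19 had 14450, 24211 and 12220 normalized counts in replicates 1, 2 and 3 of wildtype EBs. The same replicates of EVX1-Δfs EBs had 5282, 7674 and 9529. The genotypes did not overlap, but the spread within each was wide, and the gap between the lowest wildtype and the highest EVX1-Δfs library was smaller than the range within wildtype. Mean ± SD (n = 3) was 16960 ± 6378 against 7495 ± 2129. The log2 fold change was -1.16 ± 0.20 (SE), which puts EVX1-Δfs EBs at 0.449 of the wildtype level. H19 was an abundant transcript. It took from 0.127% to 0.276% of all reads in wildtype and from 0.0603% to 0.114% in EVX1-Δfs EBs, and in wildtype replicate 2 it was the 16th most counted gene. The log2 fold change was -0.87 without wildtype replicate 2, the highest library, and -1.36 without wildtype replicate 3. H19 was called in 18 of the 19 fits, and lost the call with DESeq2 when the replicate number was a block, at a log2 fold change of -1.16. The same block in limma kept it.

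H19 lies at chr7:149761434-149764048 on the minus strand (mm9), 72624 bases from Igf2. An exon of H19 holds the hairpin of the microRNA miR-675, whose 84 bases the annotation counts as exon of both genes. The Mir675 row is at 0 in all 6 libraries. Reads on bases shared by 2 genes may be left uncounted, so this 0 does not show that reads were absent there. The mRNA-seq libraries do not measure the mature microRNA. Its 2 mature strands, from RefSeq on GRCm38.p6 at chr7:142577112-142577133 and chr7:142577078-142577099 on the minus strand, are shown because H19 carries them, with the seed (bases 2 to 8) in capitals.
mmu-miR-675-5p: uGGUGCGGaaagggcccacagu
mmu-miR-675-3p: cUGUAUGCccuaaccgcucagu
The 2 seeds differ, so the strands form 2 seed groups of 1 member each.

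Igf2 had 1389, 2477 and 1337 normalized counts in wildtype and 1652, 2001 and 2284 in EVX1-Δfs EBs. The genotypes overlapped, and wildtype replicate 2 was the highest of the 6 libraries, as it was for H19. Mean ± SD (n = 3) was 1734 ± 643 against 1979 ± 317, giving a log2 fold change of 0.24 ± 0.17 (SE). Without wildtype replicate 2 the log2 fold change was 0.53 and Igf2 was called higher, and without wildtype replicate 3 it was 0.08. A 98-base stretch of Igf2 exon lies opposite an exon of Igf2as, an antisense transcript with 35.5 to 65.7 normalized counts per library.

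**Figure D2:**
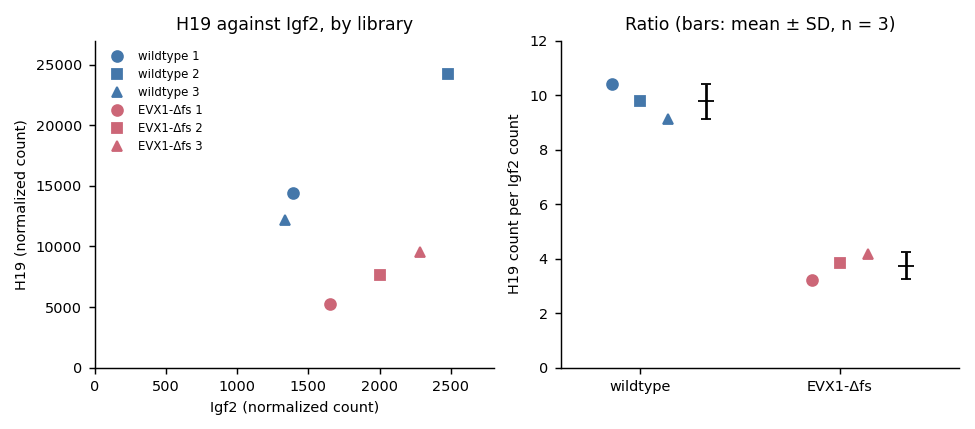
Left, normalized counts of H19 (vertical axis) against Igf2 (horizontal axis) in each library. Right, the ratio of H19 to Igf2 counts per library, with mean ± SD (n = 3). The wildtype ratios lie between 9.14 and 10.4 and the EVX1-Δfs ratios between 3.2 and 4.17, although both genes vary widely among libraries of one genotype.

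The ratio of H19 to Igf2 varied less among libraries of a genotype than either gene did. In replicates 1, 2 and 3 it was 10.4, 9.77 and 9.14 for wildtype and 3.2, 3.84 and 4.17 for EVX1-Δfs EBs. The coefficient of variation of the ratio in wildtype was 6.47%, against 37.6% for H19 and 37.1% for Igf2. In EVX1-Δfs EBs it was 13.2%, against 28.4% and 16.0%. Mean ± SD (n = 3) of the ratio was 9.77 ± 0.633 in wildtype against 3.74 ± 0.495 in EVX1-Δfs EBs. H19 and Igf2 thus varied together among the wildtype libraries, and their proportion differed between the genotypes. The shared variation in wildtype rests mostly on replicate 2. Replicates 1 and 3 had 14450 and 12220 normalized counts of H19 and 1389 and 1337 of Igf2, against 24211 and 2477 in replicate 2. In EVX1-Δfs EBs the ratio varied only a little less than Igf2 alone. Hand1, picked below for its likeness to H19 over these libraries, had 2622, 3922 and 2232 normalized counts in wildtype. Its peak in replicate 2 follows from that choice. Whether shared variation with H19 was particular to Igf2 was not tested.

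The neighbourhood of Igf2 and H19 includes the Kcnq1 imprinted domain, and 12 of its 18 listed genes were tested. Only Phlda2, a maternally expressed growth-restraining gene 834728 bases from Igf2, was called among them, where 5.02% of all tested genes were called. Phlda2 had 1359, 1769 and 1320 normalized counts in wildtype and 2406, 2369 and 2036 in EVX1-Δfs EBs, a log2 fold change of 0.62 ± 0.12 (SE, limma adjusted p = 0.00579), and it was called in all 19 fits. Cdkn1c, a maternally expressed cell cycle inhibitor of the same domain, had 494, 530 and 512 normalized counts in wildtype and 531, 513 and 536 in EVX1-Δfs EBs, with a log2 fold change of 0.04 ± 0.12 (SE, limma adjusted p = 0.864). Kcnq1ot1, the paternally expressed non-coding RNA of the domain, had a log2 fold change of 0.22 ± 0.19 (SE, limma adjusted p = 0.509). H19, Phlda2 and Cdkn1c, all maternally expressed, did not share a direction in these counts, with H19 lower, Phlda2 higher and Cdkn1c not called. Other genes of the region are left out of this comparison.

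By the same measure of likeness, the genes closest to H19 were Hand1 at 0.149, Gpr124 at 0.227 and Fn1 at 0.239. Hand1, a transcription factor gene of lateral and extraembryonic mesoderm, had 2622, 3922 and 2232 normalized counts in wildtype and 900, 1332 and 1323 in EVX1-Δfs EBs. As for H19, wildtype replicate 2 was the highest library of Hand1, of Gpr124 (730) and of Fn1 (38971), the gene of the matrix protein fibronectin, which follows from their choice over the same libraries.

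In several marker lists, called genes fell as H19 did, and their part in its difference was not tested. Over all tested genes, 2.95% were called lower. Of the lateral and extraembryonic mesoderm list, 4 of 11 tested genes fell (Hand1, Bmp4, Foxf1 and Tbx3), and the summed level was 9168 to 13103 normalized counts in wildtype and 7369 to 8846 in EVX1-Δfs EBs. Of the haematoendothelial list, 4 of 10 fell (Kdr, Lmo2, Gata2 and Etv2), with sums of 3352 to 4442 and 1954 to 2252. Of the primitive streak list, 7 of 10 fell (T, Mixl1, Eomes, Mesp1, Tbx6, Snai1 and Wnt3). In the fibroblast list, 2 of 6 fell (Col1a1 and Col1a2), with sums of 1355 to 1907 and 1109 to 1157. Uncalled genes of the lateral mesoderm, haematoendothelial and fibroblast lists went both ways. Msx1, Gata1 and Thy1 had log2 fold changes of 0.38, 0.67 and 0.07, and Msx2, Cdh5 and Pdgfrb of -0.44, -0.94 and -0.43. In the trophoblast list, 2 of 4 fell (Hand1 and Krt8), with sums of 13139 to 15594 and 8592 to 10853. Nearly all of each sum was Krt8, Krt18 and Hand1, and 4 of the 8 listed genes were under 10 normalized counts in every library. Visceral endoderm was represented by 15 genes, of which 8 were under 10 in every library, and Apoa2 was at 0. None of the 5 tested was called, with sums of 5289 to 6515 and 4747 to 5098. Nearly all of each sum was 1 gene, Apoe, with 5191 to 6399 normalized counts in wildtype and 4626 to 4962 in EVX1-Δfs EBs. Of 11 pluripotency and epiblast genes, Fgf5 rose and the others were not called, with sums of 18280 to 27552 and 22369 to 27522. With the replicate number as a block in limma, Foxf1, T, Eomes, Krt8 and Fgf5 lost their calls, at adjusted p from 0.0566 to 0.0844.

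**Figure D3:**
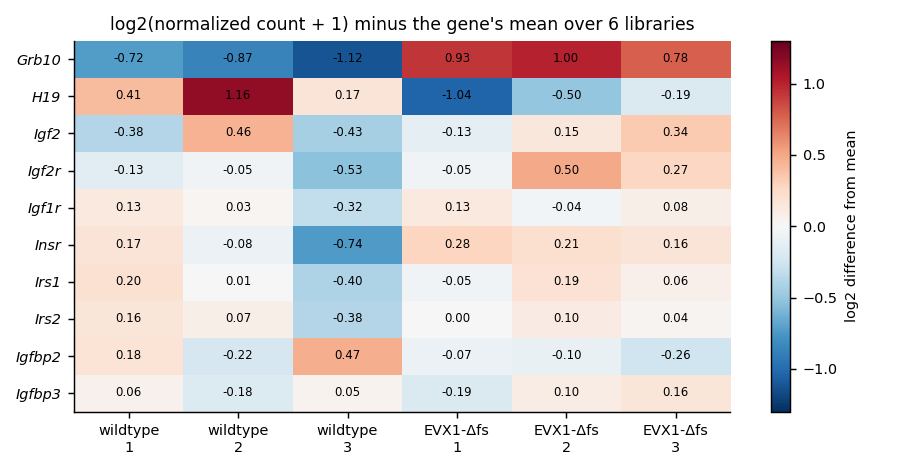
Heat map of log2(normalized count + 1) in each library minus the gene's mean over the 6 libraries, with 1 row per gene, the value printed in each cell and colour from blue (below the mean) to red (above). Grb10 runs from -1.12 to -0.72 in wildtype and from 0.78 to 1.00 in EVX1-Δfs EBs, H19 runs the other way, and wildtype replicate 3 is the lowest cell of 7 rows.

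Igf2r, the clearance receptor, had 801, 849 and 608 normalized counts in wildtype and 849, 1239 and 1062 in EVX1-Δfs EBs. The genotypes met without overlapping, with wildtype replicate 2 and EVX1-Δfs replicate 1 both at 849 after rounding. Mean ± SD (n = 3) was 752 ± 127 against 1050 ± 196, giving a log2 fold change of 0.48 ± 0.14 (SE). Igf2r was not called, but it stood near the threshold and was called in 7 of the 19 fits, among them DESeq2 and edgeR. Its log2 fold change was 0.33 without wildtype replicate 3, not called, and 0.62 without EVX1-Δfs replicate 1, called. Airn, the paternally expressed antisense RNA that silences Igf2r in many tissues, had at most 4.42 normalized counts in any library. Its exons share no base with those of Igf2r, and none of the 4 tested genes of the Igf2r neighbourhood was called.

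The 2 signalling receptors are related tyrosine kinases. Igf1r had 1206, 1122 and 879 normalized counts in wildtype and 1204, 1073 and 1161 in EVX1-Δfs EBs, with overlapping genotypes. Its log2 fold change was 0.11 ± 0.12 (SE), and it was -0.024 without wildtype replicate 3. Insr had 568, 479 and 302 normalized counts in wildtype and 612, 585 and 566 in EVX1-Δfs EBs. The 3 EVX1-Δfs libraries of Insr lay close together, while wildtype replicate 3 was far below the others, so that the SD was 135 in wildtype and 23.3 in EVX1-Δfs EBs. Insr had a log2 fold change of 0.43 ± 0.16 (SE) with all libraries, 0.17 without wildtype replicate 3 and 0.63, and called, without wildtype replicate 1.

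Grb10 acts on these receptors, and its counts were set against theirs in each library. For each Igf1r count there were 0.232, 0.225 and 0.241 Grb10 counts in wildtype and 0.733, 0.864 and 0.681 in EVX1-Δfs EBs. For each Insr count there were 0.492, 0.527 and 0.701 in wildtype and 1.44, 1.58 and 1.4 in EVX1-Δfs EBs. The mean of these ratios was 3.27-fold higher in EVX1-Δfs EBs against Igf1r and 2.57-fold higher against Insr, where Grb10 itself was 3.5-fold higher. The coefficient of variation of Grb10 was 13.7% in wildtype and 8.02% in EVX1-Δfs EBs. It was 3.48% and 12.4% for the ratio to Igf1r, and 19.5% and 6.6% for the ratio to Insr, so neither ratio varied less than Grb10 in both genotypes.

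The docking proteins were not called. Irs1 had 183, 160 and 120 normalized counts in wildtype and 154, 182 and 167 in EVX1-Δfs EBs, a log2 fold change of 0.13 ± 0.17 (SE). Irs2 had 1916, 1802 and 1320 normalized counts in wildtype and 1721, 1842 and 1761 in EVX1-Δfs EBs, a log2 fold change of 0.10 ± 0.13 (SE). In both, wildtype replicate 3 was the lowest library, and without it the log2 fold changes were -0.034 for Irs1 and -0.067 for Irs2. A 2822-base stretch of Irs1 exon lies opposite an exon of the gene model Gm9747, and 162 bases of Irs2 lie opposite 9530052E02Rik, which had at most 1.87 normalized counts.

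Wildtype replicate 3 had the lowest value of the 6 libraries in 7 of the 10 genes: Grb10, Igf2, Igf2r, Igf1r, Insr, Irs1 and Irs2. Over all tested genes the share was 24.0%. Exon models of the 7 ran from 4024 bases in Irs2 to 9669 bases in Insr, and 5692 bases is the bound of the long-exon genes given above. The counts of calls among the 10 genes without this library were the same as with it.

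The binding proteins were abundant. Igfbp2 had 1894, 1437 and 2322 normalized counts in wildtype and 1591, 1565 and 1396 in EVX1-Δfs EBs. The genotypes overlapped through wildtype replicate 2, and mean ± SD (n = 3) was 1884 ± 443 against 1517 ± 106. The log2 fold change of Igfbp2 was -0.29 ± 0.14 (SE), -0.47 and called without wildtype replicate 2, and -0.12 once GC and length trends were removed. Igfbp3 had 3212, 2723 and 3177 in wildtype and 2705, 3303 and 3430 in EVX1-Δfs EBs, with a log2 fold change of 0.05 ± 0.12 (SE) whose sign turned when wildtype replicate 2 or EVX1-Δfs replicate 3 was left out.

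**Figure D4:**
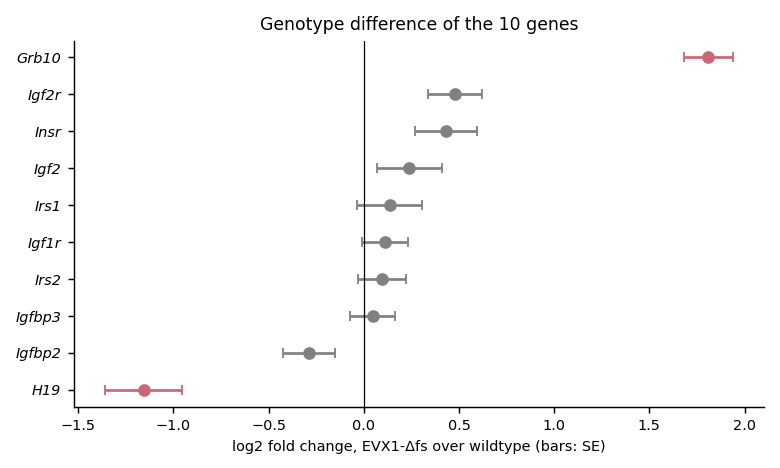
Log2 fold change (EVX1-Δfs over wildtype, on the log2(normalized count + 1) scale) of the 10 genes, sorted, with bars of ± 1 SE from limma and a line at 0. The 2 coloured points are the genes called over all tested genes, Grb10 at 1.81 and H19 at -1.16. The other 8 genes lie between -0.29 and 0.48.

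Levels of different genes were compared per kilobase of exon, first within wildtype EBs. H19 was highest at 7150 ± 2689 normalized counts per kilobase (SD, n = 3), followed by Igfbp2 at 1020 ± 240 and Igfbp3 at 970 ± 87.2, whose ranges overlapped. Irs2 at 417 ± 78.6, Igf2 at 316 ± 117 and Igf1r at 239 ± 37.9 came next, each overlapping its neighbour in the order. Igf2r at 79.7 ± 13.5, Insr at 46.5 ± 14.0, Grb10 at 27.0 ± 3.71 and Irs1 at 16.9 ± 3.46 followed without overlap between neighbours. On this scale Grb10 was the 9th of the 10 genes in wildtype EBs. In EVX1-Δfs EBs it stood at 94.6 ± 7.58 per kilobase, above Insr at 60.8 ± 2.41. These levels depend on the gene models, since those of Irs2 and Igf1r hold 61 and 369 bases outside the coding sequence, and with the longest transcript in place of all exons Grb10 in wildtype was at 49.0 per kilobase and Insr at 48.1. The order of Grb10 and Insr in wildtype therefore turned with the length used.

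The rest of the pathway was examined with a list of 63 other genes written by role, of which 55 were tested. Among these, 1 rose and 3 fell in EVX1-Δfs EBs (limma adjusted p under 0.05 over all tested genes), with a median log2 fold change of -0.013. Over all tested genes, 2.08% were called higher and 2.95% lower. Of the ligands, Igf1 was low, with 6.87 to 14.4 normalized counts in wildtype and 7.89 to 21.0 in EVX1-Δfs EBs, and the insulin genes Ins1 and Ins2 were at 0 in all 6 libraries. IGF2 was thus the ligand whose transcript was abundant in these EBs. Insrr, the orphan receptor of the family, had at most 7.89 normalized counts.

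The gene that rose was Rictor. Rictor, a subunit of mTOR complex 2, which phosphorylates AKT, had 193, 236 and 197 normalized counts in wildtype and 269, 359 and 337 in EVX1-Δfs EBs, a log2 fold change of 0.62 ± 0.15 (SE, limma adjusted p = 0.0194). The genotypes did not overlap.

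The genes that fell were Akt1, Foxo4 and Sh2b1. Akt1, the kinase downstream of PI3 kinase, had 1202, 1129 and 1224 normalized counts in wildtype and 852, 1008 and 813 in EVX1-Δfs EBs, a log2 fold change of -0.42 ± 0.12 (SE, limma adjusted p = 0.0383). Foxo4, a forkhead factor that AKT keeps out of the nucleus, had 4531, 4459 and 4562 in wildtype and 3385, 3584 and 3185 in EVX1-Δfs EBs, a log2 fold change of -0.42 ± 0.11 (SE, limma adjusted p = 0.0294). Sh2b1, an adaptor that enhances insulin receptor signalling, had 1281, 1180 and 1122 in wildtype and 966, 934 and 814 in EVX1-Δfs EBs, a log2 fold change of -0.40 ± 0.11 (SE, limma adjusted p = 0.0428).

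The 4 genes differed in base composition. The GC content of the exons was 42.5% in Rictor, and 60.6%, 54.7% and 59.9% in Akt1, Foxo4 and Sh2b1, around a median of 50.3% over tested genes. With GC and length trends removed from each library, 0 of the 55 genes were called higher and 0 lower, and the adjusted p of the 4 genes ran from 0.112 for Foxo4 to 0.248 for Sh2b1 in limma. With the replicate number as a block, limma kept Rictor (adjusted p = 0.0406) and lost the other 3, among which Akt1 had an adjusted p of 0.0805, Foxo4 of 0.068 and Sh2b1 of 0.0679. The GC content of Grb10 was 48.1% and that of H19 was 55.9%, and their log2 fold changes with the trends removed were 1.72 and -1.02, both still called.

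**Figure D5:**
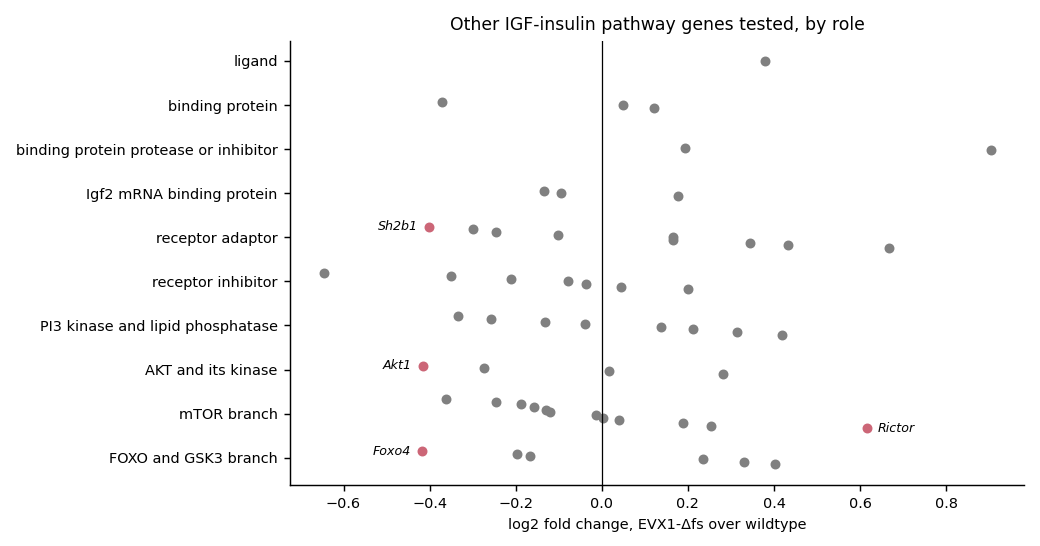
Log2 fold change (EVX1-Δfs over wildtype) of the 55 tested pathway genes other than the 10, 1 point per gene, grouped by role on the vertical axis, with small vertical offsets that only keep points apart. The 4 coloured, named genes passed the limma threshold over all tested genes. Points of most roles lie on both sides of 0.

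Pappa, a protease that cleaves IGF-binding proteins, and Irs4, a docking protein, had larger differences than Rictor but did not pass the test, at log2 fold changes of 0.90 ± 0.28 (SE, limma adjusted p = 0.0608) and 0.67 ± 0.23 (SE, limma adjusted p = 0.0841). The genotypes of both did not overlap, but their counts were low. Pappa had 17 to 41 reads per library and Irs4 had 39 to 80, where Rictor had 172 to 354. Among the remaining pathway genes, none of the 3 tested binding proteins passed the test, and Igfbp4 had a log2 fold change of 0.12 ± 0.13 (SE) at 1878 ± 325 normalized counts in wildtype (SD, n = 3). The 3 Igf2 mRNA binding proteins, Igf2bp1, Igf2bp2 and Igf2bp3, had log2 fold changes of 0.18, -0.13 and -0.09. None of the 7 tested receptor inhibitors on the list passed the test. Socs1 had a log2 fold change of -0.65 ± 0.23 (SE, limma adjusted p = 0.0947) and Ptpn1 of -0.35 ± 0.12 (SE, limma adjusted p = 0.0811).

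The promoters of the members were searched for TAATTA, a core sequence that many homeodomain proteins bind and that reads the same on both strands. RefSeq windows of 300 bases were given for 8 of the 10 genes, with none for H19 and Insr, and made 13 windows. The letters were found in 1 of the 13, and in 5.29% of all 32851 windows. The match was at the third listed start of Igf2, at chr7:142658773-142658802 on the minus strand (GRCm38.p6), and is shown with the motif in capitals because it is the 1 match.
Igf2 start 3: acccaagtggatTAATTAtacgctttctgt
The motif begins 14 bases after that start. No window of Grb10 held these letters. No binding of EVX1 was measured, and a match is only a description of the letters.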

How the data were processed

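mRNA-seq was measured in 6 libraries of day 4 EBs, 3 per genotype, grouped and numbered by the sample labels. The authors prepared libraries from selected mRNA for the Ion Proton, aligned reads to mm9 with TopHat2 followed by TMAP and used HTSeq with default options for counting, per the labels and methods. Tool versions and annotation are not given in the sources used here. The deposited values are a signal that is never negative: counts divided by 1 size factor per library. Whole reads were recovered for 100% of values, within 0.001 read, and numbered 7597879 to 9914471 per library, which sets the counting error. No column was left unused.

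Since the values are normalized and not raw counts, the main test was limma 3.58.1 (R 4.3.3) with a mean-variance trend on log2(normalized count + 1), which understates changes of low genes, over genes with at least 10 normalized counts in at least 3 libraries. Genotype was the only term, and Benjamini-Hochberg adjusted p under 0.05 over all 13136 tested genes was called. DESeq2 1.42.0 and edgeR 4.0.16 on the recovered reads were alternatives, with other pseudocounts (4 and 16), filters, scalings, the replicate block, GC and length trends removed (natural splines, 5 degrees of freedom) and each library left out.

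The series' design text says that the genotypes were differentiated side by side in runs set up on different days, so the replicate number was taken to mark the run and to pair the libraries, although no label ties a number to a day. Deviations of same-numbered libraries from the genotype means correlated at 0.111, 0.00933 and -0.101 over 13136 genes, so these values show little shared deviation.

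Genes were placed on NCBIM37 (mm9) with GENCODE vM1, where 21791 of 23353 symbols (93.3%) matched. Of these, 768 were matched through a table of gene names or a RefSeq synonym. HTSeq's default counts by strand, but the strand option itself is not spelled out, so genes that overlap on opposite strands are uncertain. Mature microRNA and promoter sequences are from RefSeq (GRCm38.p6).

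The 10 genes and all lists were chosen with earlier results of these data known. Named were all 10 genes, called genes of the lists, uncalled ligands, receptors and Grb7 family inhibitors, and the 3 genes most like Grb10 and H19. Other genes named were chosen after their values were seen. In addition, 1 gene was removed from the pathway list and is not reported here.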

Additional observations from a re-analysis of the deposited data

How the results depend on the processing

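Over 18 alternatives to the main fit, Grb10 and Phlda2 stayed called in every one, and H19 in all but DESeq2 with the replicate block, which left 0 of the 10 genes called lower. Igf2r crossed the threshold in 7 alternatives, so that 2 of the 10 genes were called higher with pseudocounts of 4 and 16, upper-quartile scaling, DESeq2 and edgeR. Leaving out 1 library gave 1 to 3 genes higher and 1 to 2 lower. It spread the log2 fold changes over 0 for Igf1r (-0.024 to 0.204), Irs1 (-0.034 to 0.266) and Irs2 (-0.067 to 0.202), negative without wildtype replicate 3, and for Igfbp3 (-0.030 to 0.152), negative without wildtype replicate 2 or EVX1-Δfs replicate 3 (-0.019). The causes were not tested.

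Over all tested genes, 273 were called higher and 387 lower. The replicate block gave 76 and 146 in limma and 77 and 207 in DESeq2, removing GC and length trends gave 99 and 179, and both together gave 71 and 131. Upper-quartile scaling gave 370 and 325. Leaving out 1 library gave 77 to 332 higher and 138 to 355 lower. Of the other pathway genes, 1 was called higher and 3 lower. A pseudocount of 16 gave 2 higher, the block gave 1 and 0 in limma and 1 and 1 in DESeq2, GC and length trends removed gave 0 and 0 with or without the block, and leaving out 1 library gave 0 to 1 higher and 0 to 2 lower. Among the neighbours, leaving out 1 library gave 1 higher and 0 to 1 lower, and the calls on the marker lists numbered 12 to 23, with 19 in the main fit, and 14 with the block in limma and 18 in DESeq2, where Tbx6 had no adjusted p. Beside the calls named here and in the report, the block in limma changed none among the named genes. Genes with few counts, such as Igf1 and Airn, are limited by depth.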
